A study of Mus musculus with 8 samples.

Results

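The site described here is a stretch of 30 kb on mouse chromosome 11, from 111300001 to 111330000 (mm9), between Kcnj2 and the boundary that separates Kcnj2 from Sox9. It comprised 3 of the 587 bins of 10 kb in capture Hi-C maps of the locus, and its contacts with every bin at least 20 kb away were read in all 8 libraries. The site was chosen with results of these maps in view: the ∆CTCF map lacked a dip in insulation there that the other deletion maps held. Contacts of ∆CTCF beside the site are therefore given as a description. Its position was given by the bins and no gene is named for it.

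Capture Hi-C enriches ligated DNA from a chosen region, so that each read pair counts a contact between 2 places. The tissue was E12.5 forelimb and hindlimb buds of homozygous mutants made by CRISPR/Cas9 in a G4 ESC background, with the buds of 3 to 8 embryos pooled for each condition. The genotypes, by the names in the labels, were ∆CTCF, ∆BorC1-4, ∆BorC1-2 and ∆BorC1 (the 4 deletion libraries), and a set of 4 rearranged libraries called BorKnockIn, InvC, InvIntra and InvC∆Bor. Each had 1 library, so no test was possible, and the pooled buds mix several cell types. The wildtype and the remaining mutant of the series were not analysed here. The labels do not say which sites each genotype lacks, nor whether ∆CTCF carries the deletions of ∆BorC1-4. Whether the CTCF site or sites lost in ∆CTCF include any in these 3 bins is not stated in the labels either.

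Sox9 is a transcription factor gene on which cartilage cells depend, and the product of Kcnj2 is a potassium channel of the inward rectifier class. Both genes lie in neighbouring topologically associating domains, which are stretches of chromatin that contact themselves more than their surroundings. CTCF binds DNA and, with the cohesin complex, holds the anchors of chromatin loops. Domain boundaries commonly hold clusters of CTCF sites, and CTCF sites inside a domain can anchor loops of their own. The long interval between the boundary and Sox9 has no protein-coding gene and is known as a gene desert that holds enhancers of Sox9. In the RefSeq annotation of GRCm38 the order of the genes is Abca5, Map2k6, Kcnj16, Kcnj2, Gm11677, Sox9 and Slc39a11.

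The libraries held 3056502 to 9045698 raw contacts. The site took part in 25768 contacts in ∆CTCF, which was 0.579% of that library. It took part in 61315 contacts (0.678%) in ∆BorC1-4, with 41329 (0.645%) in ∆BorC1-2 and 32125 (0.655%) in ∆BorC1. The rearranged libraries had 35373 (0.595%) in BorKnockIn, 31137 (0.630%) in InvC, 38858 (0.623%) in InvIntra and 20455 (0.669%) in InvC∆Bor. The share was lowest in ∆CTCF and next lowest in BorKnockIn. Below, contact over expected is the raw count divided by the library's own mean at the same distances. The same ratio from the authors' balanced (KR) values, which remove differences in bin coverage, is given where the results turn on it. Intervals are exact 95% Poisson intervals for single values, log-normal ones for ratios and Clopper-Pearson ones for shares. All of them reflect counting error alone, with each read pair treated as an independent observation.

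The sequence of the site was present in ∆CTCF at this resolution. Coverage of its 3 bins stood at 0.885, 0.940 and 0.964 of the median library in ∆CTCF, against 1.01, 1.04 and 1.03 in ∆BorC1-4. Bins within 300 kb of the site had a median coverage of 1.02 in ∆CTCF and 0.999 in ∆BorC1-4. A deletion much smaller than 10 kb would not show in these values. Over all its partners, the site stood at 0.811 of expected in ∆CTCF, 0.930 in ∆BorC1-4, with 0.937 in ∆BorC1-2 and 0.953 in ∆BorC1. By KR values these were 1.02, 1.06, 1.07 and 1.08. Balancing evens out the totals of bins, so similar KR totals follow from it. The part of coverage in the raw difference in total contact was not tested.

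The division of the site's contacts between left (Kcnj2) and right (Sox9) was nearly the same in ∆CTCF as in ∆BorC1-4. The right side held 53.3% of the site's contacts in ∆CTCF (52.7 to 53.9) and 52.7% in ∆BorC1-4 (52.3 to 53.1), with 51.3% in ∆BorC1-2 and 49.9% in ∆BorC1. KR values gave 52.1% in ∆CTCF and 52.4% in ∆BorC1-4. Both sides were lower in ∆CTCF: the left stood at 0.761 of expected in ∆CTCF, against 0.888 in ∆BorC1-4, and the right at 0.860 against 0.972. Within 300 kb, the right share was 45.3% in ∆CTCF and 47.7% in ∆BorC1-4. At 226 positions in the flanks, more than 300 kb outside Kcnj2 to Sox9, the same difference of ∆CTCF minus ∆BorC1-4 ran from -3.31 to 4.05 percentage points with a median of 0.170.

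The far partners of the site were the places where ∆CTCF stood apart. The strongest lay 930 kb to the left at 110370001 to 110400000, called the 110.37 Mb window, which was among the 5 highest windows at least 100 kb away in all 8 libraries. Its contact with the site was 2.08 times expected in ∆CTCF (1.84 to 2.35, from 266 contacts). It was 4.53 in ∆BorC1-4 (4.28 to 4.79, from 1254 contacts), with 4.37 in ∆BorC1-2 and 4.80 in ∆BorC1. The rearranged libraries had 6.37 in BorKnockIn, 4.12 in InvC, 6.23 in InvIntra and 4.18 in InvC∆Bor. The value in ∆CTCF was below those of all 7 other libraries, at 0.460 of ∆BorC1-4 (0.403 to 0.525), or 0.507 by KR values. The windows at 110.40 and 110.43 Mb were similarly placed, at 0.474 and 0.490 of ∆BorC1-4. No gene is assigned to these windows here.

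Kcnj2, placed at 110910001 to 110940000 from general knowledge of mm9 and not from the deposited files, lay 390 kb to the left. Contact between the site and Kcnj2 was 1.20 times expected in ∆CTCF (1.08 to 1.33, from 353 contacts), 1.92 in ∆BorC1-4 (1.81 to 2.03, from 1225 contacts), with 2.08 in ∆BorC1-2 and 1.94 in ∆BorC1. It was 2.21 in BorKnockIn, 1.72 in InvC, 2.24 in InvIntra and 1.86 in InvC∆Bor. Again ∆CTCF was lowest, and its interval did not meet that of any other library. The ratio of ∆CTCF to ∆BorC1-4 was 0.624 (0.554 to 0.702), and by KR values 0.714. With the centre bin of the site alone, which had low coverage, contact was 0.761 in ∆CTCF and 1.20 in ∆BorC1-4 by raw values. By KR values it was 1.18 in ∆CTCF and 1.70 in ∆BorC1-4, so neither was below expected after balancing. Against ∆BorC1-2 the ratio of ∆CTCF was 0.575 and against ∆BorC1 0.616. These comparisons share the ∆CTCF library. Pairs of flank windows at the same spacing gave ratios from 0.722 to 1.35 over 530 positions, with a median of 0.994.

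**Figure D1:**
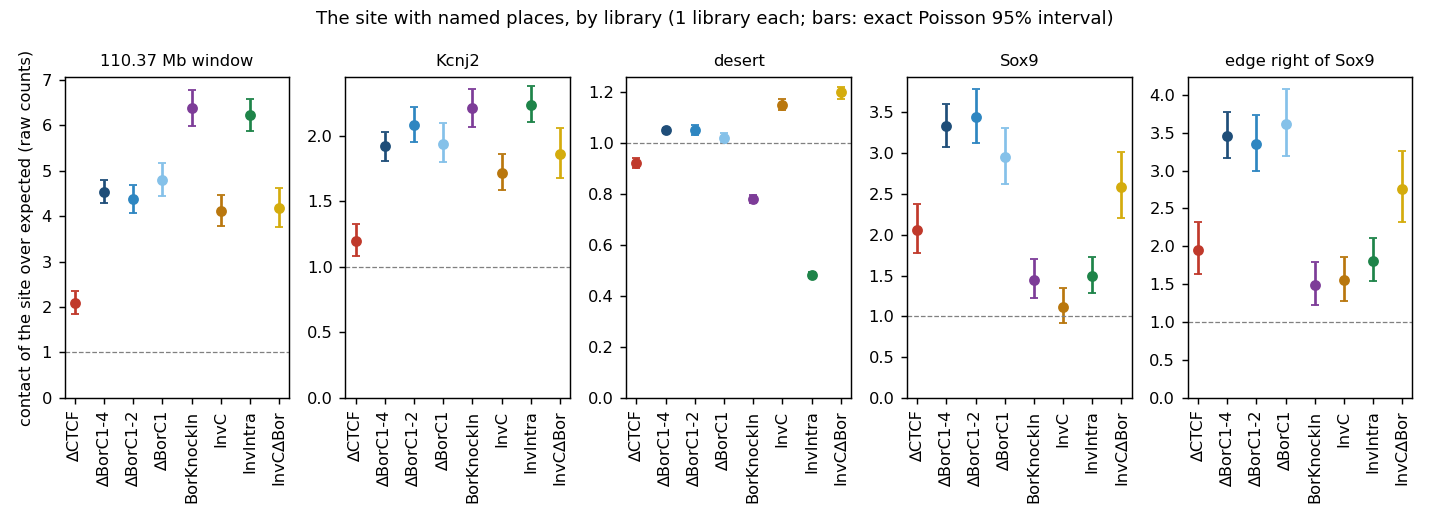
Contact over expected of the site (vertical axes, raw counts) with 5 places, for the 8 libraries along the horizontal axis, 1 library each, with exact Poisson 95% intervals and a dashed line at 1. ∆CTCF is lowest for the 110.37 Mb window (2.08) and Kcnj2 (1.20), and InvIntra is lowest for the desert (0.482).

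To the right, contact with Sox9 and with the edge of the Sox9 domain was also lower in ∆CTCF than in the other deletion libraries. Sox9, placed at 112630001 to 112660000 in the same way, lay 1330 kb from the site. Its contact with the site was 2.06 times expected in ∆CTCF (1.78 to 2.38, from 184 contacts). It was 3.34 in ∆BorC1-4 (3.08 to 3.61, from 617 contacts), with 3.44 in ∆BorC1-2 and 2.95 in ∆BorC1. In the rearranged libraries it was 1.45 in BorKnockIn, 1.12 in InvC, 1.50 in InvIntra and 2.58 in InvC∆Bor, so ∆CTCF lay below the ∆BorC libraries and InvC∆Bor and above the remaining 3. The ratio of ∆CTCF to ∆BorC1-4 was 0.618 (0.524 to 0.729), and by KR values 0.717. At this spacing the flank windows had a median of 0.758, and ran from 0.634 to 1.01 over 36 positions. The site's ratio lay below the lowest of them by less than the width of its interval. The difference at Sox9 is thus less separate from the flanks than the difference at Kcnj2.

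The edge right of Sox9, near 113.03 Mb, was read at 113010001 to 113040000, 1710 kb from the site. Contact with it was 1.95 times expected in ∆CTCF (1.64 to 2.32, from 132 contacts), 3.46 in ∆BorC1-4 (3.17 to 3.78, from 497 contacts), with 3.35 in ∆BorC1-2 and 3.62 in ∆BorC1. BorKnockIn had 1.49, InvC 1.55, InvIntra 1.81 and InvC∆Bor 2.76. The value in ∆CTCF was closer to those of BorKnockIn, InvC and InvIntra than to those of the ∆BorC libraries. The ratio of ∆CTCF to ∆BorC1-4 was 0.564 (0.466 to 0.684), and by KR values 0.611. No pair of flank windows at this spacing had 50 contacts in both libraries, so no flank range can be set beside it. Beyond the edge the 2 libraries were alike by raw counts, with 0.550 of expected in ∆CTCF and 0.544 in ∆BorC1-4 (ratio 1.01, 0.947 to 1.08). By KR values ∆CTCF was higher there, at 0.823 against 0.739 (ratio 1.11).

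Contact with the gene desert, read from 111410001 to 112490000, differed less. It was 0.920 of expected in ∆CTCF (0.900 to 0.940), but 1.07 there by KR values. It was 1.05 in ∆BorC1-4 (1.04 to 1.06), with 1.05 in ∆BorC1-2 and 1.02 in ∆BorC1. The rearranged libraries spread more widely, at 0.781 in BorKnockIn, 1.15 in InvC, 0.482 in InvIntra and 1.20 in InvC∆Bor. The ratio of ∆CTCF to ∆BorC1-4 was 0.876 (0.854 to 0.899), or 0.929 by KR values, and 4 of 228 flank positions at this spacing were at or below 0.876. Within the desert the ratio was 0.919 from 111410001 to 111950000 and 0.807 from 111950001 to 112490000, so the part nearer Sox9 was the lower of both. As a share of all its contacts, the site spent 31.9% on the desert in ∆CTCF and 32.5% in ∆BorC1-4.

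Near the site the order of ∆CTCF and ∆BorC1-4 was the other way round. The interval from Kcnj2 to the site stood at 0.793 of expected in ∆CTCF and 0.712 in ∆BorC1-4 (ratio 1.11, 1.08 to 1.15), with 0.754 in ∆BorC1-2 and 0.769 in ∆BorC1. The interval from the site to the boundary place, 111330001 to 111390000 less the bin left out, stood at 0.658 in ∆CTCF and 0.550 in ∆BorC1-4 (ratio 1.20, 1.13 to 1.26). The KR ratios were 1.22 and 1.26. Against ∆BorC1 the interval from Kcnj2 to the site had a raw ratio of 1.03 (0.996 to 1.07), or 1.15 by KR values. The original boundary place itself, 70 kb around the bin at 111390001 less the bins left out, stood at 0.750 in ∆CTCF, 0.700 in ∆BorC1-4, with 0.690 in ∆BorC1-2 and 0.712 in ∆BorC1. Its ratio of ∆CTCF to ∆BorC1-4, 1.07 (0.996 to 1.15), lay inside the flank range of 0.836 to 1.20. In shares, the interval from Kcnj2 to the site took 26.8% of the site's contacts in ∆CTCF and 20.4% in ∆BorC1-4. Everything left of Kcnj2 took 18.6% in ∆CTCF and 24.9% in ∆BorC1-4.

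**Figure D2:**
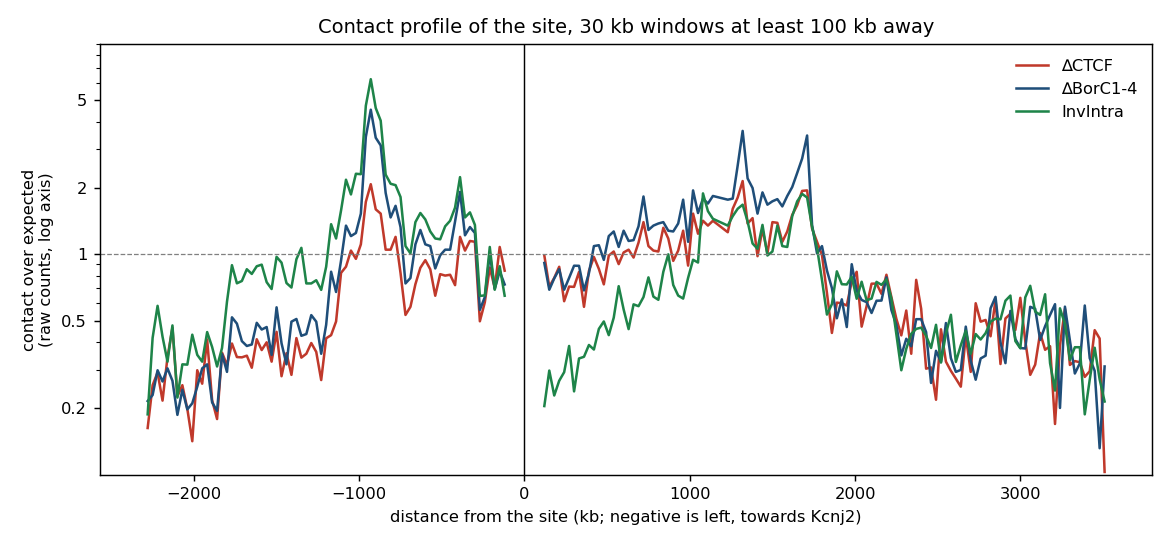
Contact of the site over expected (raw counts, log axis) in 30 kb windows by distance from the site in kb, negative towards Kcnj2, for ∆CTCF, ∆BorC1-4 and InvIntra. At 930 kb to the left ∆CTCF reaches 2.08, against 4.53 in ∆BorC1-4, and InvIntra (6.23 there) lies below both across the nearer part of the desert.

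The number of window pairs past a fold of 1.5 shows the same pattern over the whole profile. Of 90 windows at least 100 kb from the site with 50 contacts in both libraries, 15 were lower in ∆CTCF than in ∆BorC1-4 by over 1.5-fold and 0 were higher. Over all 7926 such pairs of windows in the map, 0.719% were lower and 0.568% were higher by that fold. Those pairs were not matched to the site's pairs by distance. In the flanks the median ratio was 0.994 at the spacing of Kcnj2 and 0.758 at that of Sox9. The site was chosen on this contrast, so the count is a description. By KR values 7 of the 90 pairs were lower and 0 higher, beside 0.568% and 0.631% of all pairs. The median ratio of the site's pairs was 0.782 (0.856 by KR values), and that of all pairs 1.01. Of the 15 lower pairs, 10 of 35 were on the left and 5 of 55 on the right. Those on the right lay 1320 to 1710 kb from the site. Ratios below 1 made up 32 of the 35 pairs on the left and 49 of the 55 on the right. The highest ratios were at 111.15 Mb (1.28, 1.17 to 1.41), 111.18 Mb (1.16, 1.05 to 1.28) and 113.07 Mb (1.13, 0.852 to 1.50), the first of these 150 kb from the site.

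Among 189 viewpoints of 30 kb tiled over the map, the window at the site had the most pairs past the fold in this direction and the lowest median. Because the site was chosen on this contrast, its rank is a description and gives no support apart from that choice. The next was its left neighbour at 111.27 Mb with 10 of 100, and then 113.40 Mb with 4 of 92. The comparisons with ∆BorC1-2 and ∆BorC1 share the ∆CTCF library. Against ∆BorC1-2, ∆CTCF had 15 lower and 1 higher site pairs, beside 0.695% and 0.430% of all pairs. KR values gave 10 lower and 2 higher, beside 0.543% and 0.581%. Against ∆BorC1 it had 16 lower and 0 higher, beside 0.852% and 0.620%. KR values gave 12 lower and 0 higher, beside 0.840% and 0.943%.

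**Figure D3:**
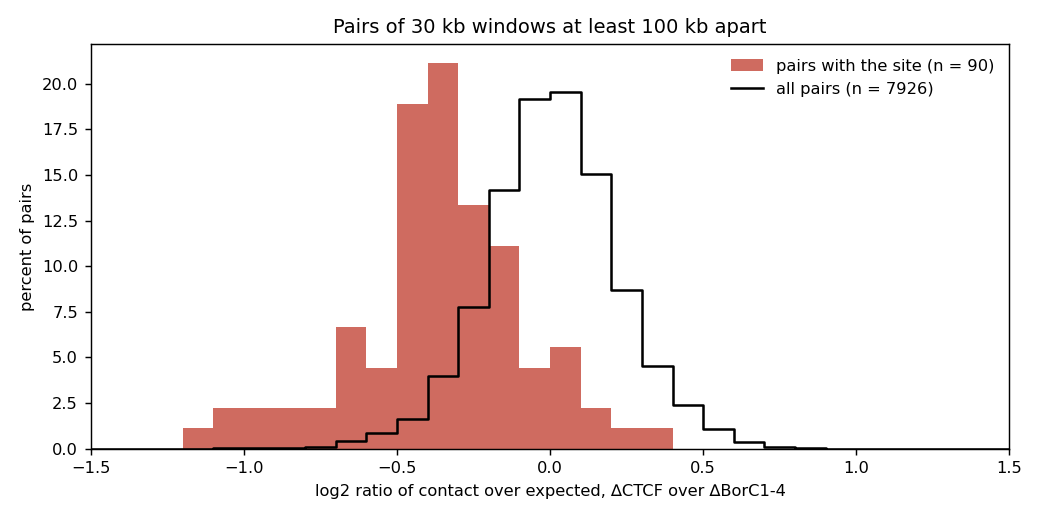
Log2 ratio of contact over expected, ∆CTCF over ∆BorC1-4 (horizontal axis), as a percent of pairs (vertical axis) for the 90 pairs with the site (bars) and all 7926 pairs (line). The site's pairs have a median ratio of 0.782, and all pairs 1.01.

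Single bins placed the contact within the site. In 20 bins of 10 kb around it, the first site bin, 111300001 to 111310000, had the highest contact with the 110.37 Mb window in the 7 libraries other than ∆CTCF, by raw values. In ∆CTCF this bin stood at 3.23, the seventh highest of the 20, against 7.92 in ∆BorC1-4. The median of the 20 bins was 2.62 in ∆CTCF and 3.20 in ∆BorC1-4. The same bin led for Kcnj2 in those 7 libraries, by raw and by KR values. It stood at 1.61 in ∆CTCF and 3.25 in ∆BorC1-4, and by KR values at 1.12 in ∆CTCF and 2.05 in ∆BorC1-4.

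For the Sox9 side the first site bin was highest, by raw values, in the 3 ∆BorC libraries and in InvC∆Bor, and for Sox9 in BorKnockIn as well (2.02). With Sox9 it stood at 3.08 in ∆CTCF, while ∆BorC1-4 had 5.29, ∆BorC1-2 had 5.48 and ∆BorC1 had 4.41. With the edge it stood at 2.85 in ∆CTCF, while ∆BorC1-4 had 5.55, ∆BorC1-2 had 5.52 and ∆BorC1 had 5.83. By KR values other bins were higher than the first site bin in 3 of these cases. They were the bin at 111320001 for Sox9 in ∆BorC1 (3.60, against 3.46 in the first), the bin at 111330001, just outside the site, for Sox9 in BorKnockIn (1.70, against 1.54), and the bin at 111310001 for the edge in InvC∆Bor (4.35, against 3.58). In ∆CTCF no bin of the 20 reached the height that the first site bin had in ∆BorC1-4 for any of the 4 partners.

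**Figure D4:**
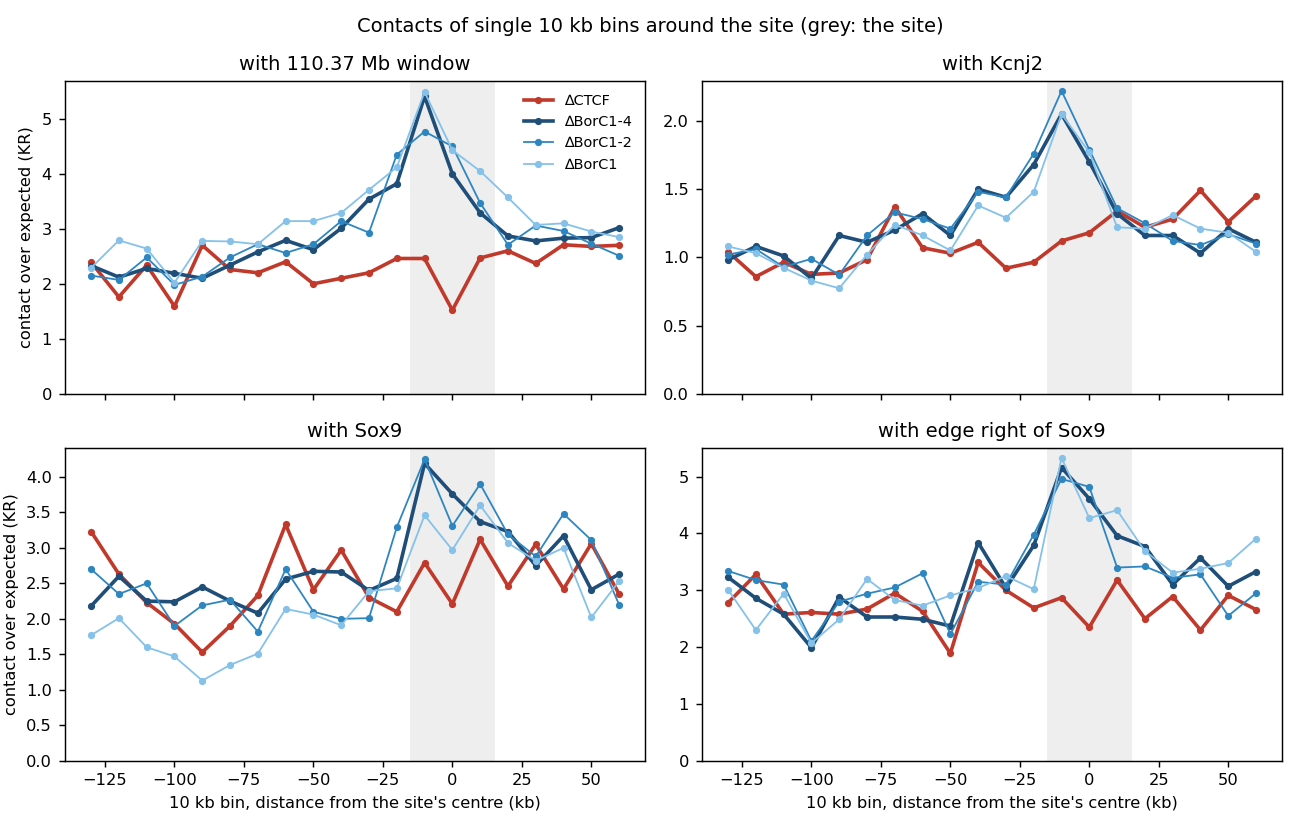
Contact over expected (KR values, vertical axes) of 20 single 10 kb bins with the 110.37 Mb window, Kcnj2, Sox9 and the edge right of Sox9, by the bin's distance from the site's centre in kb, for the 4 deletion libraries, with the site in grey. With Kcnj2 the first site bin stands at 1.12 in ∆CTCF and at 2.05 in ∆BorC1-4.

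The lower contact in ∆CTCF was not spread evenly over the 20 bins. For the 110.37 Mb window, the ratio of ∆CTCF to ∆BorC1-4 was 0.341 to 0.708 in the 3 site bins, 0.587 to 0.982 in the 6 bins within 30 kb of them, and 0.734 to 1.23 in the 11 bins further out. For Kcnj2 these ranges were 0.497 to 0.955, 0.575 to 1.50 and 0.739 to 1.33. The third site bin was close to 1 for Kcnj2 (0.955), while the bin left of the site, at 111290001, was at 0.575. On the right of the site, the bin at 111350001 contacted Kcnj2 more in ∆CTCF, at 1.92 against 1.28 in ∆BorC1-4 (ratio 1.50, 1.24 to 1.82). For the edge the 3 ranges were 0.456 to 0.766, 0.670 to 0.938 and 0.767 to 1.30, and for Sox9 0.494 to 0.788, 0.705 to 1.07 and 0.612 to 1.37.

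Contacts of the interval from Kcnj2 to the site that pass over the site were higher in ∆CTCF than in the other deletion libraries. Contact between the interval from Kcnj2 to the site and the interval from the site to the boundary place was 1.09 of expected in ∆CTCF, 0.832 in ∆BorC1-4, with 0.839 in ∆BorC1-2 and 0.895 in ∆BorC1. The ratio of ∆CTCF to ∆BorC1-4 was 1.31 (1.27 to 1.34). These contacts fall inside the window of the insulation score by which the site was chosen, so they restate that choice. Contact of the interval from Kcnj2 to the site with the desert was 1.52 in ∆CTCF and 1.22 in ∆BorC1-4 (ratio 1.25, 1.24 to 1.26). Part of this contact may also fall inside the insulation window. It was 1.27 in ∆BorC1-2 and 1.22 in ∆BorC1. InvC (1.48) and InvC∆Bor (1.41) were nearly as high as ∆CTCF, while BorKnockIn (0.986) and InvIntra (0.674) were lower. Within the interval from Kcnj2 to the site, both libraries were close to expected, at 0.989 in ∆CTCF and 0.978 in ∆BorC1-4.

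With the other partners of the site, the 110.37 Mb window was not lower in ∆CTCF than in ∆BorC1-4 beyond counting error. It contacted Kcnj2 at 6.16 times expected in ∆CTCF and 4.99 in ∆BorC1-4 (ratio 1.23, 1.16 to 1.32). ∆BorC1-2 (6.05) and ∆BorC1 (5.78) were closer to ∆CTCF there. With Sox9 it stood at 9.28 in ∆CTCF and 8.73 in ∆BorC1-4 (ratio 1.06, 0.952 to 1.19). With the edge right of Sox9 it stood at 10.7 in ∆CTCF and 10.8 in ∆BorC1-4 (ratio 0.989, 0.882 to 1.11). Its contact with the interval between the site and the boundary place was 2.90 in ∆CTCF and 3.19 in ∆BorC1-4 (ratio 0.911, 0.828 to 1.00). ∆BorC1-2 had 3.10 and ∆BorC1 had 3.40. The intervals of ∆CTCF (2.67 to 3.14) and ∆BorC1 (3.16 to 3.64) did not meet. Of the pairs named for this window, the pair with the site was the lowest in ∆CTCF relative to ∆BorC1-4, at 0.460. The site was chosen on this contrast, and the window had the lowest ratio of all the site's windows. This order therefore follows from the choice and is a description.

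The rearranged libraries differ from each other in what lies to the right of the site. By the log of bin coverage over 98 desert bins, the desert correlated with the median of the 4 deletion libraries in mirrored order in InvC (Pearson r = 0.887), InvIntra (0.851) and InvC∆Bor (0.898), against -0.0543, 0.0545 and -0.0634 in the reference order. In BorKnockIn it correlated best when shifted by 20 kb (0.903). These correlations describe the order of capture and mappability along the bins and have no test. Positions in the desert are therefore coordinates of each rearranged map, at which these libraries hold other sequence than the deletion libraries do. Over 227 bins from 109060001 to the end of the site, coverage correlated best in the unshifted order in all 8 libraries, with r from 0.985 to 0.999, against at most 0.378 at the shifts of up to 5 bins that were tried.

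InvIntra divided the site's contacts differently. The bin at the original boundary place was covered in all 4 rearranged libraries. The desert order that fitted best was not the same in all of them, so this bin is a coordinate at which they may hold unlike sequence. Which sequence it holds in each was not read. The right side held 34.3% of the site's contacts in InvIntra (33.9 to 34.8) and 54.0% in InvC∆Bor (53.3 to 54.7), and 33.4% and 53.0% by KR values. Within 300 kb the right share was 33.0% in InvIntra and 49.7% in InvC∆Bor. The range of this share over the libraries at flank positions was at most 4.89 percentage points (median 2.20, with BorKnockIn left out on the right flank). Contact with the desert was 0.482 of expected in InvIntra (0.470 to 0.493) and 1.20 in InvC∆Bor (1.17 to 1.22), which makes a ratio of 0.402 (0.389 to 0.416). From 111410001 to 111950000 it was 0.345 in InvIntra and 1.07 in InvC∆Bor.

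The step in InvIntra lay at the boundary place. The bins next to the boundary bin on each side were left out. Less these, the 30 kb left of the boundary bin stood at 0.530 in InvIntra and 0.521 in InvC∆Bor. The 30 kb right of it stood at 0.226 in InvIntra (0.194 to 0.262, from 175 contacts) and 0.771 in InvC∆Bor. The boundary bin itself had 224 contacts with the site in InvIntra, 0.477 of expected (0.417 to 0.544). The bin stood at 0.583 in BorKnockIn (243 contacts), 0.934 in InvC (351 contacts) and 0.867 in InvC∆Bor (188 contacts). InvIntra was thus the lowest of the 4 rearranged libraries at this coordinate, where they may hold unlike sequence. In the 4 deletion libraries this bin had 0 to 8 contacts with the whole map, and 0 with the site, so its contact with the site could not be measured there. Left of Kcnj2 the site's contact was 1.51 of expected in InvIntra and 1.00 in InvC∆Bor (ratio 1.51, 1.46 to 1.56). With Kcnj2 the ratio was 1.20 (1.07 to 1.35). With Sox9 it was 0.581 (0.471 to 0.716) and with the edge 0.656 (0.524 to 0.821). Of the 20 bins scanned around the site, the highest contact to Sox9 and the edge in InvIntra was at 111370001, at 3.26 and 4.07. This bin lies left of the boundary bin and not in the site. It was the last bin of the scan, so bins closer to the boundary bin were not read.

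**Figure D5:**
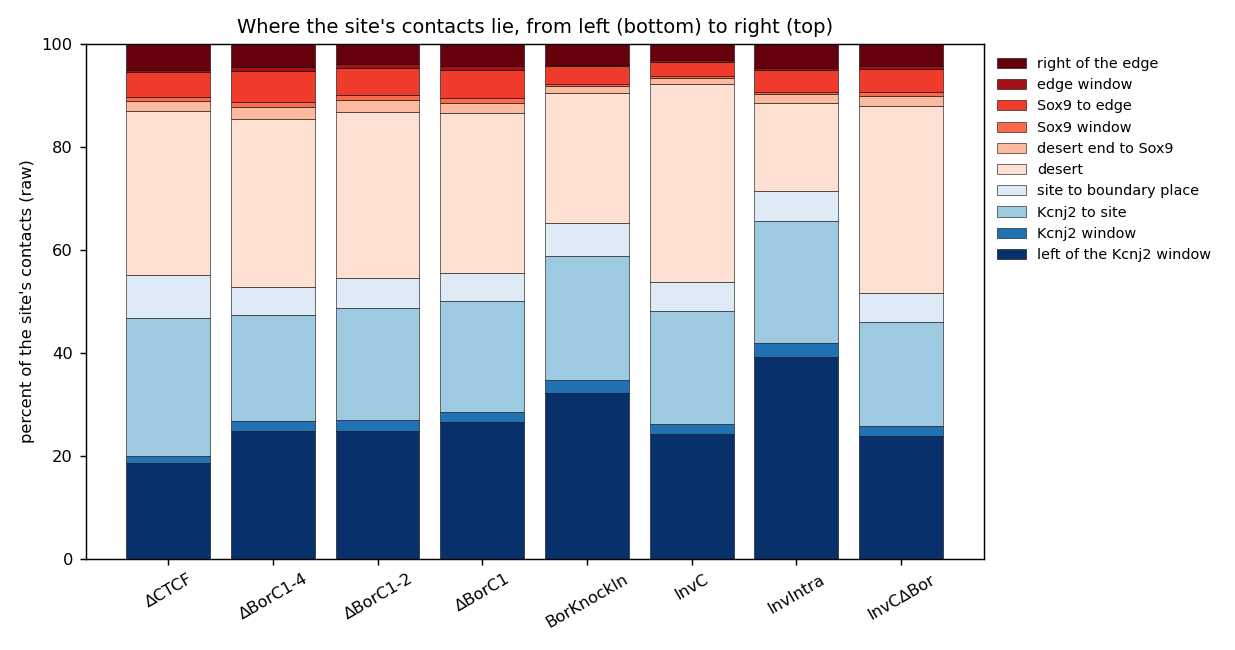
Percent of the site's raw contacts (vertical axis) that fell in each interval, stacked from left of Kcnj2 (bottom) to right of the edge (top), for the 8 libraries. Left of Kcnj2 holds 39.3% in InvIntra and 18.6% in ∆CTCF, and the desert holds 17.1% in InvIntra, the lowest of the 8.

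In InvC, contact with the desert was close to that of InvC∆Bor, but contact with Sox9 was lower. The desert stood at 1.15 of expected in InvC and 1.20 in InvC∆Bor (ratio 0.964, 0.936 to 0.992). Sox9 stood at 1.12 in InvC (0.922 to 1.35, from 110 contacts) and 2.58 in InvC∆Bor (from 168 contacts), a ratio of 0.434 (0.341 to 0.552). The edge stood at 1.55 in InvC and 2.76 in InvC∆Bor (ratio 0.561, 0.439 to 0.717). With Kcnj2 the ratio was 0.925 (0.814 to 1.05). The site met the 20 kb at 112490001 to 112510000, at the Sox9 end of the desert, at 3.13 times expected in InvC (2.74 to 3.56, from 233 contacts) and 0.516 in InvC∆Bor (from 25 contacts). Coverage of this 20 kb was 1.19 of the median library in InvC and 0.567 in InvC∆Bor. Bins here were left out of the other results by the coverage limit, so this contrast rests on bins that the limit excluded. The part of coverage, or of missing sequence, in this difference was not tested.

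BorKnockIn was similar at that place and on the Sox9 side. The 20 kb stood at 2.93 in BorKnockIn (2.57 to 3.34) and 1.21 in ∆BorC1-4, with coverage of 1.28 in BorKnockIn and 0.920 in ∆BorC1-4. Contact with Sox9, moved by 1 bin to follow the shifted coordinates, was 1.45 in BorKnockIn and 3.34 in ∆BorC1-4 (ratio 0.434, 0.363 to 0.520). The edge had a ratio of 0.429 (0.349 to 0.528) and the desert 0.744 (0.726 to 0.763). Left of Kcnj2 the site stood at 1.42 in BorKnockIn and 1.06 in ∆BorC1-4 (ratio 1.34, 1.31 to 1.37), and with Kcnj2 the ratio was 1.15 (1.06 to 1.26). The right share was 41.1% in BorKnockIn, between that of InvIntra and those of the remaining 6 libraries.

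The windows with the highest contact followed these differences. In the 3 ∆BorC libraries the 5 highest windows were 110.34, 110.37 and 110.40 Mb on the left and 112.62 Mb (Sox9) and 113.01 Mb (the edge) on the right. In InvIntra all 5 were on the left, between 110.28 and 110.43 Mb, and in BorKnockIn all 5 were on the left with Kcnj2 as the fifth. InvC and InvC∆Bor shared 112.38 Mb, with values of 3.08 (InvC) and 3.16 (InvC∆Bor). At the same place the deletion libraries stood at 1.42 in ∆CTCF, 1.79 in ∆BorC1-4, with 1.37 in ∆BorC1-2 and 1.24 in ∆BorC1. At the mirrored place, 111490001 to 111520000, they stood at 0.736 in ∆CTCF, 0.761 in ∆BorC1-4, with 0.779 in ∆BorC1-2 and 0.800 in ∆BorC1. In ∆CTCF the highest window was at Sox9 (112.62 Mb, 2.15), followed by 110.37 Mb (2.08).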

How the data were processed

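The authors deposited raw maps, in which each value counts the read pairs between 2 bins of 10 kb. KR (Knight-Ruiz) values are a balanced signal made by the authors and named so in the deposited files. Bowtie2 2.2.6, Juicer and the build mm9 are named per the submitters' processing notes, and read filters were not given in the sources. There were 16 maps, and 12 KR values in 3 libraries were not a number, 0 of them at the site.

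Of 587 bins, 8 with coverage under 0.05 of the median in any library, or next to such a bin, were left out. The boundary bin and the 20 kb at 112490001 to 112510000 were read on their own despite this limit. Expected contact was each library's mean per distance over the remaining pairs at that distance. With 1 library per genotype there was no test. The site and the partner places were chosen with earlier results of these data known, as was the added 10 kb scan. Named windows were the places of the rule, the 5 highest windows per library at least 100 kb away with 50 contacts, and the 3 highest and 3 lowest ratios of ∆CTCF to ∆BorC1-4. The calculation was tested on simulated maps: 12 of 12 planted ratios of ∆CTCF to ∆BorC1-4 fell inside their intervals. These maps held counting error alone, with the same bin coverage in both libraries. They therefore do not test how far real libraries differ beyond counting. Depth ran from 3056502 to 9045698 contacts. No mm9 sequence was used here, so no sequence is printed. Scripts ran in Python 3.11.15 with scipy 1.17.1, pandas 2.3.3, numpy 2.4.6 and matplotlib 3.10.9.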

Additional observations from a re-analysis of the deposited data

How the results depend on the processing

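No paired analysis was possible because each genotype had 1 library. Alternatives were KR values, a viewpoint of 10 or 50 kb, no bins left out, thinning to 3056502 contacts, other distance limits and other expected values. The first site bin as viewpoint, and KR values with it or with the 10 kb viewpoint, were chosen after seeing the data. Of 55 alternatives of the ratios of ∆CTCF to ∆BorC1-4, 36 moved by less than the counting interval. The right share (1.01) was 0.996 with KR values, 0.976 with the 10 kb viewpoint, 1.03 with 50 kb, 1.08 with the first site bin by raw and by KR values, 0.982 with KR and 10 kb, 1.05 beyond 100 kb and 0.951 within 300 kb, so its side of 1 is not settled. Kcnj2 (0.624) was 0.714 with KR values, 0.497 with the first site bin and 0.547 with both. The boundary place (1.07) was 1.20 with KR values and the first bin and 1.26 with KR and 10 kb. The desert (0.876) was 0.929 with KR values, 0.930 with 50 kb, 0.971 with KR and the first bin and 0.930 with KR and 10 kb. With the 10 kb viewpoint Sox9 (0.618) was 0.494 and the edge (0.564) was 0.456. Of 240 alternatives for single libraries, 11 crossed 1. With the 10 kb viewpoint Kcnj2 was 0.761 in ∆CTCF and 0.872 in InvC, the desert 0.699 in ∆BorC1-4, 0.693 in ∆BorC1-2, 0.743 in InvC and 0.815 in InvC∆Bor, Sox9 0.911 in BorKnockIn and 0.731 in InvIntra, and the edge 0.922 in InvC. The desert in ∆CTCF was 1.07 with KR values and 1.15 with the expected contact from outside Kcnj2 to Sox9. The causes were not tested. The centre bin of the site had low coverage, with 6839 raw contacts in ∆CTCF against 15361 in the first bin.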

Other observations

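The 110.37 Mb window contacted the interval between the site and the boundary place more strongly in InvIntra than in the other libraries, at 5.91 times expected in InvIntra, 3.97 in BorKnockIn and 2.67 in InvC∆Bor. In the 20 kb from 111360001 to 111380000, left of the boundary bin, the value was 6.54 in InvIntra, against 2.90 in ∆CTCF and 3.16 in ∆BorC1-4. By KR values, the highest contact of a single bin with this window lay in the centre bin of the site in InvIntra (7.60) and BorKnockIn (6.96), and in the first site bin in InvC (4.86), InvC∆Bor (4.80) and the 3 ∆BorC libraries (4.77 to 5.49).

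The 110.37 Mb window met Kcnj2 at 4.99 in InvIntra, 5.24 in BorKnockIn, 4.80 in InvC and 5.08 in InvC∆Bor, so this contact varied less over the rearranged libraries than its contact with the site did (6.23 in InvIntra, 6.37 in BorKnockIn, 4.12 in InvC and 4.18 in InvC∆Bor). With the edge right of Sox9 it stood at 6.16 in InvIntra, 4.87 in BorKnockIn and 5.74 in InvC, below the 10.8 of ∆BorC1-4.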
